A study of Mus musculus with 2 samples.

Results

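Complement components and receptors in the mouse thymus were described through 8 genes of the 20451 in the deposited gene tables, across cell types and in both genotypes of the study. The genes were chosen by name: the C1q chains C1qa, C1qb and C1qc, the central component C3, the alternative pathway genes Cfb and Cfp, and the anaphylatoxin receptors C3ar1 and C5ar1. The rule uses names and no measured value, and all 8 were found in the tables. The study sorted thymic cells stained for CD11c and CD11b, the surface markers of dendritic and myeloid cells, from Mgl2DTR_eGFP mice, which carry a diphtheria toxin receptor on the Mgl2 gene, and from wild-type mice of the B6 strain (labelled B6WT, here WT). The Mgl2DTR mice were 7 weeks old and were given 500 ng of diphtheria toxin, with cells taken at 48 h. WT mice were also 7 weeks old, and the labels do not say whether they were given toxin. Thymi of both were digested with collagenase D at 1 mg/ml, and cells carrying CD90.2 (mostly T lineage cells) were removed magnetically before the sort. Cells of both genotypes were run as 1 pool with hashtag antibodies in the 10x 3′ assay, which counts transcripts as unique molecular identifiers (UMIs).

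Complement is a cascade of plasma and cell-made proteins that tags targets for removal. C1q, a molecule built from A, B and C chains, starts the classical pathway by binding antibody complexes or dying cells. C3 is the component on which all pathways meet, factor B (Cfb) supplies the enzyme of the alternative pathway's C3 convertase, and properdin (Cfp) steadies that convertase. Cleavage of C3 and C5 releases the peptides C3a and C5a, which act on the receptors C3ar1 and C5ar1 of myeloid cells. Tissue macrophages are a known source of C1q, and macrophages of the thymus engulf the many thymocytes that die during selection.

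Cells with a single genotype hashtag numbered 7433 with 71521759 UMIs for Mgl2DTR and 11586 with 116719748 UMIs for WT. Median UMIs per cell were 6930 in Mgl2DTR and 7820 in WT cells. Both genotypes are parts of 1 library, told apart by hashtag, and the labels name no animals. Each genotype was therefore 1 sample, no test between genotypes was possible, and intervals below are exact 95% intervals for counting error only. Cells carrying a pair of hashtags made up 34.0% of the 28926 barcodes. They were left out of all levels, shares and ratios, but not of the clustering. The tables hold 3 hashtags and the labels name only these genotypes, so the meaning of the further hashtag is unknown here, and a pair of hashtags need not mean a pair of genotypes. By the hashtags of their neighbours, 12.6% of Mgl2DTR and 13.55% of WT cells with a single hashtag were called doublets. The labels call the cells thymocytes, and T cell-like cells were 1 kind among many. Clustering without the complement genes and without Mgl2 gave 24 clusters, of which 19 were named from marker genes. The 12 clusters described here were named and held at most 50% called doublets in each genotype. Mgl2, the gene that carries the receptor, had 200.1 UMIs per 1e6 (CPM) in Mgl2DTR cells and 592.8 CPM in WT cells of the cDC2-like cluster (conventional type 2 dendritic cells), and 30.7 against 197.5 CPM in the macrophage-like cluster.

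A gene was counted as measured in a cluster when it had at least 50 UMIs over both genotypes there. It was called higher or lower in Mgl2DTR when the CPM ratio, Mgl2DTR over WT, was at least 1.5 in that direction and its whole interval lay on the same side of 1. In the 12 described clusters, 64 pairs of complement gene and cluster were measured, of which 11 (17.2%) were called higher and 8 (12.5%) lower. Among all 96358 measured pairs of gene and cluster, 4.02% were called higher and 4.26% lower. These shares are a description only, because the members were chosen with earlier results of these data known. Pairs within a cluster also share the same cells and are not independent. Of the described calls, C1qa held 0 higher and 1 lower, C1qb 3 and 2, and C1qc 1 and 2. In all 19 clusters with at least 50 cells of each genotype, 20 of 95 pairs were called higher, against 4.33% of all pairs, and 14 lower, against 4.72%. The 7 of these that are not described, unnamed or rich in called doublets, held 9 higher and 6 lower of 31 pairs. The calls lay in few clusters: the monocyte-like, cDC2-like, macrophage-like, B cell-like and both described neutrophil-like clusters held all 19 calls of the described clusters.

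**Figure D1:**
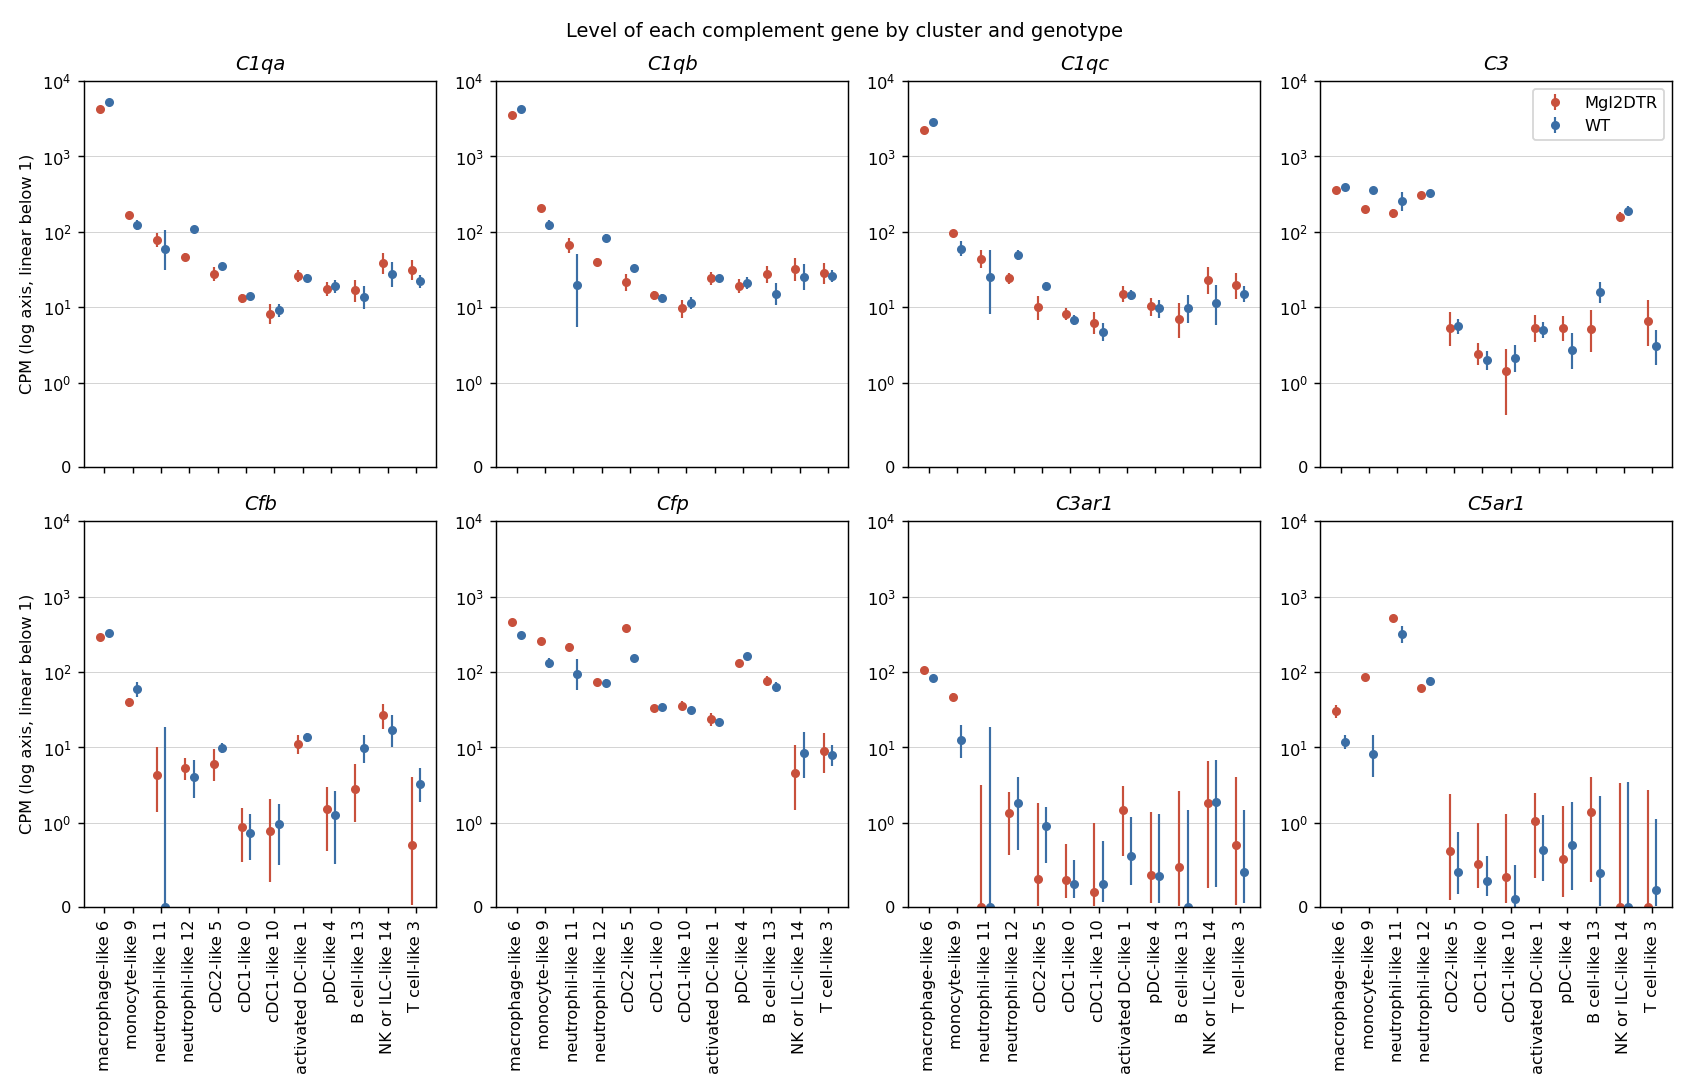
Levels of the 8 complement genes (CPM, vertical axis linear below 1 and logarithmic above) in the 12 described clusters, with Mgl2DTR in red to the left of WT in blue and exact 95% Poisson intervals as bars. C1q genes stand above 2000 CPM in macrophage-like cells of both genotypes, and C5ar1 stands at 86.5 CPM in Mgl2DTR and 8.08 CPM in WT monocyte-like cells.

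C1q transcripts lay mostly in 1 cluster. They summed to 10074 CPM (9963 to 10186) in Mgl2DTR and 12349 CPM (12272 to 12427) in WT cells of the macrophage-like cluster, which held 326 Mgl2DTR and 724 WT cells and was named from 12 of 14 macrophage markers that do not include C1q. That cluster gave 79.05% of all C1q UMIs of Mgl2DTR cells and 91.2% of those of WT cells. T cell-like cells, which should lack C1q, had 80.4 CPM in Mgl2DTR and 63.5 CPM in WT, so sums near this level elsewhere were read as background. This level does not allow for depth, and T cell-like cells were shallow (medians of 3128 and 3124 UMIs). Per cell they held 0.293 C1q UMIs in Mgl2DTR and 0.228 in WT, against 0.663 and 1.07 in cDC2-like cells. Levels of genes are not ranked against each other here, because counts were not scaled by transcript length.

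The C1q genes lie side by side on chromosome 4 (GRCm38, GENCODE vM21), on the minus strand, in the order C1qb (136880129 to 136886187), C1qc (136889804 to 136893065) and C1qa (136895917 to 136898803). The whole group spans 18675 bases, with 3616 bases between C1qb and C1qc and 2851 between C1qc and C1qa. Promoter sequence is shown for both C1q genes that RefSeq's table held, because all C1q chains had their highest level in the same cluster, and for Cfp and C5ar1, which were called higher in 3 described clusters each. RefSeq (GRCm38.p6) gave 6 of the 8 genes, without C1qa and Cfb. Each run is the 250 bases before RefSeq's start of the gene, 5′ to 3′ on the minus strand. GENCODE places the start of C1qc at 136893065 and that of C5ar1 at 16259540, inside these runs. By that annotation part of the C1qc run and most of the C5ar1 run lie within the gene. Capitals mark the letters of a PU.1 core (GAGGAA, or TTCCTC on the other strand), a motif of a factor that myeloid cells are known to use.
C1qb chr4:136886201-136886450: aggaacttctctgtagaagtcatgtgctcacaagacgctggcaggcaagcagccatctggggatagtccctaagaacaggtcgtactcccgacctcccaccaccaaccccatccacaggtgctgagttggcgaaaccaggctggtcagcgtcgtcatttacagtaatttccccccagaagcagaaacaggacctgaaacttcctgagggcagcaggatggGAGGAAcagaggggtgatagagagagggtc
C1qc chr4:136892915-136893164: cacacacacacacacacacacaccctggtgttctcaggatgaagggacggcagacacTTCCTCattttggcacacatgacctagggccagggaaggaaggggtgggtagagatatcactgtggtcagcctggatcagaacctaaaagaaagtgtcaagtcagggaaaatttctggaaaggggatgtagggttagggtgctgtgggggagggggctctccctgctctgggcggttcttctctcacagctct
Cfp chrX:20931556-20931805: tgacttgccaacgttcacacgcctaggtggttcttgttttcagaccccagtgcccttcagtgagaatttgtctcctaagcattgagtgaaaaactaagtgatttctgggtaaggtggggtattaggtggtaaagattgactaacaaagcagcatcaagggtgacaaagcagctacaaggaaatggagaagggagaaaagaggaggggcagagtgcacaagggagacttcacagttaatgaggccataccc
C5ar1 chr7:16259339-16259588: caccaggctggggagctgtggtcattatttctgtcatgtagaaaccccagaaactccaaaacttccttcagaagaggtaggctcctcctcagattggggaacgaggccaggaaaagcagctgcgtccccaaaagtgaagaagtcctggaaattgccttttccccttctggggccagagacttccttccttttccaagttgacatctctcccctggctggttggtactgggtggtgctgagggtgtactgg
The PU.1 core letters stood at -30 to -25 in C1qb and at -193 to -188 in C1qc, and in 23.3% of the 32851 promoter windows of the same length. The motif was searched on both strands, and 2 of the 6 windows held it, those of C1qb and C1qc. These letters were not in the Cfp and C5ar1 windows. A match describes letters in a window and is not a measured binding site.

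Each C1q chain was a little below WT in Mgl2DTR macrophage-like cells, by less than the 1.5-fold needed for a call. C1qa had 4232 CPM in Mgl2DTR and 5201 CPM in WT, a ratio of 0.814 (0.798 to 0.830). The ratios of C1qb and C1qc were 0.837 and 0.788. All C1q chains together were found in 83.7% (79.3 to 87.6) of Mgl2DTR and 83.0% (80.1 to 85.7) of WT macrophage-like cells. The share of cells with all chains thus differed by less than its counting error, while the median cell held 45.5 C1q UMIs in Mgl2DTR and 84.5 in WT. These cells were also shallower in Mgl2DTR, with a median of 7321 UMIs against 9635 in WT. Called doublets made up 15.03% of Mgl2DTR and 17.5% of WT macrophage-like cells.

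The proportions of the chains in macrophage-like cells were within 1 percentage point between genotypes. C1qa made up 42.0% (41.5 to 42.6) of C1q UMIs in Mgl2DTR and 42.1% (41.8 to 42.4) in WT. C1qb gave 35.5% (34.99 to 36.05) in Mgl2DTR and 34.6% (34.33 to 34.93) in WT. C1qc gave 22.5% (22.01 to 22.93) in Mgl2DTR and 23.25% (22.99 to 23.52) in WT. The intervals of the genotypes overlapped for C1qa but not for C1qb or C1qc. Mgl2DTR monocyte-like cells had another mix, with 35.1% (33.4 to 36.9) C1qa and 44.2% (42.4 to 46.1) C1qb, and these intervals did not overlap those of the macrophage-like cells. In WT monocyte-like cells C1qa was 40.4% (35.7 to 45.2), which overlapped both. Such a mix was not particular to monocyte-like cells: C1qa was 36.8% (32.8 to 40.9) in Mgl2DTR cDC1-like cells and 34.8% (29.5 to 40.4) in WT T cell-like cells, both below the macrophage-like intervals, and C1qb was 41.3% (35.8 to 47.0) in the WT T cell-like cells.

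**Figure D2:**
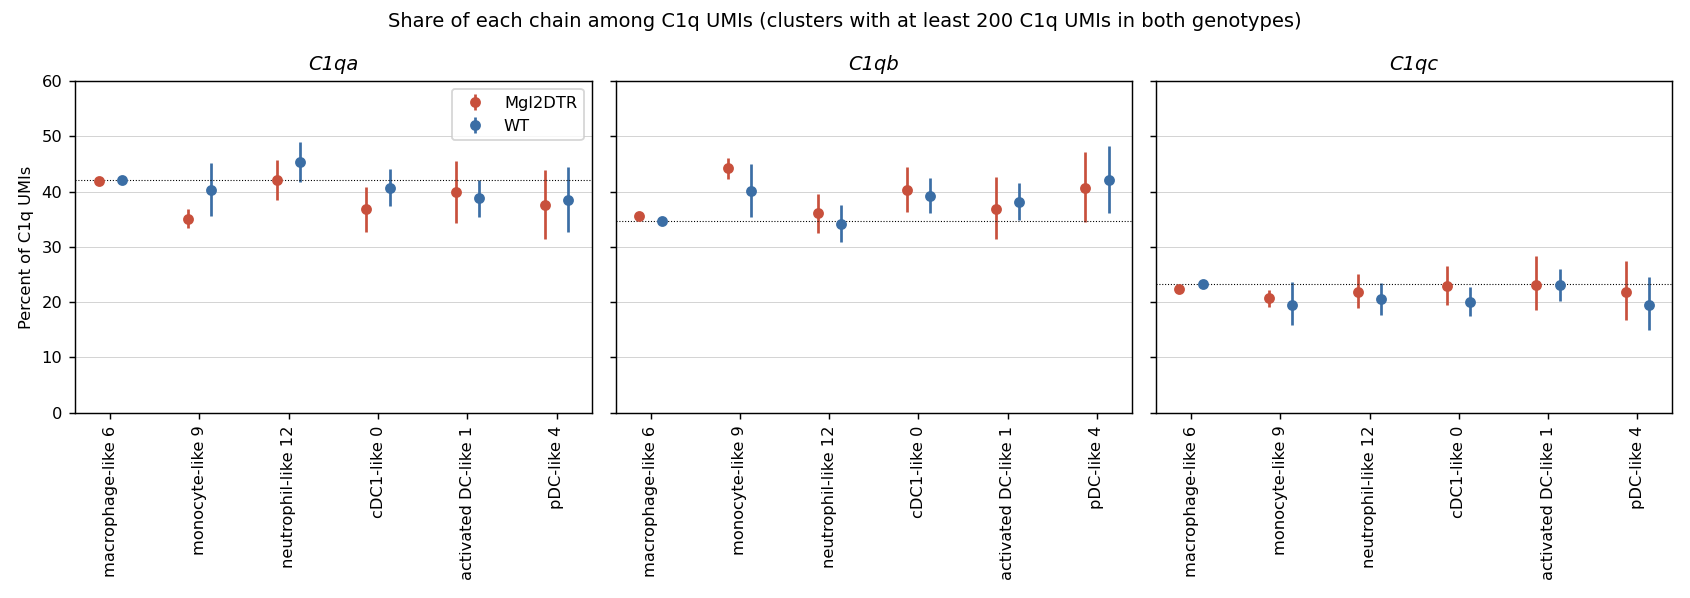
Percent of C1q UMIs from each chain in clusters with at least 200 C1q UMIs in both genotypes, Mgl2DTR in red beside WT in blue, with exact 95% binomial intervals and the WT macrophage-like value as a dotted line. Mgl2DTR monocyte-like cells stand below the line for C1qa (35.1%) and above it for C1qb (44.2%).

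In the monocyte-like cluster, 616 Mgl2DTR and 230 WT cells, C1qb and C1qc were called higher and C1qa was not. C1qb had 210.2 CPM in Mgl2DTR and 124.2 CPM in WT, a ratio of 1.69 (1.44 to 2.00). C1qc had 98.3 against 60.2 CPM (1.63, 1.29 to 2.08), and C1qa 167.1 against 124.9 CPM (1.34, 1.14 to 1.58). All chains were found in 11.7% (9.26 to 14.5) of Mgl2DTR and 4.35% (2.10 to 7.85) of WT cells, and the median cell of either genotype held none. A single WT cell carried 34.7% of the C1qa, 24.3% of the C1qb and 42.7% of the C1qc UMIs. Both calls were lost when cells were thinned to 2000 UMIs (1.40 and 1.24). Among cells without neutrophil UMIs, described below, all chains were called higher, with ratios of 3.92 (2.73 to 5.79) for C1qa, 3.39 for C1qb and 4.28 for C1qc. The direction turned with the clustering: at resolution 0.5, where the cells shared a cluster with macrophage-like cells, the C1qb ratio was 0.425 and the C1qc ratio 0.392, and at resolution 2 they were 0.517 and 0.508.

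Neutrophil-like cells formed a pair of described clusters, 1 led by Camp, Ngp, Ltf and Elane (298 Mgl2DTR and 274 WT cells) and 1 led by Cxcl2, G0s2 and Cxcr2 (637 and 112 cells). In the Camp-led cluster all C1q chains were called lower: C1qa had 46.5 CPM in Mgl2DTR and 109.2 CPM in WT, a ratio of 0.426, and C1qb and C1qc had ratios of 0.485 and 0.490. Mgl2DTR cells of this cluster were deeper, with a median of 19135 UMIs against 6997.5 in WT. Per cell the C1qa difference was smaller, with 1.04 UMIs in Mgl2DTR and 1.29 in WT. A single cell held 29.8% of the C1qa UMIs in each genotype. Without called doublets the C1qa and C1qc ratios were 0.778 and 0.790 and not called, and at the larger hashtag margin none of the chains was called (0.700 to 0.839). In the Cxcl2-led cluster C1qb had 78 UMIs in Mgl2DTR and 4 in WT, a ratio of 3.37 (1.26 to 12.7). C1qa and C1qc were not called there (1.30 and 1.76), and 1 Mgl2DTR cell held 20.5% of the C1qb UMIs. Per cell, C1qb was 0.122 UMIs in Mgl2DTR, near the 0.105 of Mgl2DTR T cell-like cells. After thinning to 2000 UMIs 25 Mgl2DTR and 1 WT UMIs were left, too few to read a ratio.

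C3 was found in macrophage-like, monocyte-like and neutrophil-like cells of both genotypes. In macrophage-like cells it had 357.9 CPM (337 to 380) in Mgl2DTR and 391.1 CPM (377 to 405) in WT, a ratio of 0.915 (0.854 to 0.980). In monocyte-like cells it had 198.95 CPM (188 to 211) in Mgl2DTR and 361.4 CPM (330 to 395) in WT, a ratio of 0.550 (0.495 to 0.613), and was called lower. C3 lies on chromosome 17 (57203970 to 57228136), on the minus strand like the other 7 genes. Counted per cell after every cell was thinned to 2000 UMIs, C3 was found in 29.95% (26.3 to 33.9) of Mgl2DTR and 45.8% (39.0 to 52.7) of WT monocyte-like cells. Thinning kept 581 of 616 Mgl2DTR and 214 of 230 WT cells. Unthinned, the shares were 61.7% and 64.8%, with Mgl2DTR cells deeper (median 8685 UMIs against 5020.5 in WT). T cell-like cells had C3 in 1.60% of Mgl2DTR and 0.800% of WT cells after thinning, at median depths of 3128 and 3124 UMIs.

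The C3 difference in monocyte-like cells kept its direction in all 13 alternatives, with ratios of 0.459 to 0.722. It was no longer called without cells holding markers of another lineage (0.722), at a larger hashtag margin (0.691) or at resolution 0.5 (0.671). In the Camp-led neutrophil-like cells C3 had 309.96 CPM in Mgl2DTR and 331.6 CPM in WT, and in the Cxcl2-led cells 175.9 against 255.7 CPM (0.688, not called). Per cell, the deeper Mgl2DTR cells of the Camp-led cluster held 6.91 C3 UMIs and the WT cells 3.91. In B cell-like cells C3 was called lower (5.16 against 15.9 CPM) on 11 Mgl2DTR and 39 WT UMIs, and 1 cell in each genotype held 36.4% and 41.0% of them. After thinning 3 and 2 UMIs were left, too few to read a ratio. NK or ILC-like cells had 157.7 CPM in Mgl2DTR and 191.1 CPM in WT, but in 11 and 4 cells only. The clusters gave different shares of all C3 UMIs: 21.1% in Mgl2DTR and 54.7% in WT came from macrophage-like cells, and the Camp-led neutrophil-like cluster gave the most in Mgl2DTR (38.8%).

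Cfb lay mostly in macrophage-like cells. It had 294.3 CPM in Mgl2DTR and 329.3 CPM in WT macrophage-like cells, a ratio of 0.894, and 39.6 against 58.8 CPM in monocyte-like cells (0.674, 0.521 to 0.880, not called). Macrophage-like cells held 62.6% of Cfb UMIs in Mgl2DTR and 73.8% in WT. In cDC2-like cells Cfb was called lower at 5.99 CPM in Mgl2DTR and 9.89 CPM in WT (0.606, 0.349 to 0.993), where T cell-like cells had 0.738 and 3.28 CPM. With the complement genes among the clustered genes this ratio was 1.07, and without cells holding markers of another lineage 4 UMIs were left in each genotype. Cfb, on chromosome 17 (34856374 to 34862518), shares its strand and bases with Gm20547 and lies 85 bases from C2, so its counts are uncertain where reads could not be split.

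In dendritic cells Cfp was called higher in Mgl2DTR in the cDC2-like cluster. In cDC2-like cells, 270 Mgl2DTR and 1205 WT, it had 381.2 CPM (359 to 404) in Mgl2DTR and 152.3 CPM (146 to 159) in WT, a ratio of 2.50 (2.33 to 2.69). It was the single complement gene called higher there, against 3.02% of all 10000 measured genes, while C1qb, C1qc and Cfb were called lower, against 4.53%. C1qb had 21.6 CPM in Mgl2DTR and 33.7 CPM in WT and C1qc 9.99 and 19.0 CPM, near the CPM of T cell-like cells. The 1 cell with the most UMIs held 13.85% of C1qb in Mgl2DTR and 23.8% in WT. For C1qc that cell held 23.3% in Mgl2DTR and 17.7% in WT. Per cell, C1qb stood at 0.241 UMIs in Mgl2DTR and 0.408 in WT, against 0.105 and 0.094 in T cell-like cells. The C1qb and C1qc ratios turned above 1 at resolutions 0.5 and 2. After thinning to 2000 UMIs, Cfp was found in 47.0% (41.0 to 53.2) of Mgl2DTR and 23.0% (20.6 to 25.5) of WT cDC2-like cells, and in 0.959% and 1.51% of T cell-like cells. Unthinned, it was found in 82.6% of Mgl2DTR and 62.6% of WT cDC2-like cells. Median depth was close, with 10400.5 UMIs in Mgl2DTR and 11211 in WT.

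Cells with and without a Mgl2 UMI can be set side by side, since the toxin acts on cells that use this gene. A cell without such a UMI may still use the gene. In Mgl2DTR cDC2-like cells those without were shallower, with a median of 9381.5 UMIs against 11871.5. Among cDC2-like cells with a Mgl2 UMI, Cfp had 382 CPM (350 to 417) in 106 Mgl2DTR cells and 144 CPM (137 to 151) in 797 WT cells. Among those without a Mgl2 UMI it had 380.45 CPM (351 to 411) in 164 Mgl2DTR cells and 174 CPM (161 to 187) in 408 WT cells. Cfp was therefore above WT in both subsets, and within Mgl2DTR it did not differ beyond counting error by Mgl2 UMI. Within WT it was lower in cells with a Mgl2 UMI, and those intervals did not overlap. All 13 alternatives kept the call, with ratios of 2.27 to 2.63. A finer clustering split these cells, with ratios of 2.63 (2.40 to 2.88) and 1.86 (1.60 to 2.16) in its cDC2-like clusters. T cell markers summed to 299 CPM in Mgl2DTR and 831 CPM in WT cDC2-like cells, and neutrophil markers to 320 and 288 CPM. The part of these in the Cfp result was not tested.

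Cfp was also higher in monocyte-like cells, with 258.97 CPM in Mgl2DTR and 132.2 CPM in WT (1.96, 1.68 to 2.30). At resolution 0.5 this ratio was 1.26. In macrophage-like cells Cfp had 466.4 CPM (443 to 491) in Mgl2DTR and 311.8 CPM (300 to 324) in WT, and its ratio of 1.496 fell just short of the 1.5 required. Cxcl2-led neutrophil-like cells had 214.9 CPM in Mgl2DTR and 95.3 CPM in WT (2.26, 1.41 to 3.81), on 19 WT UMIs, and 0.958 without cells holding markers of another lineage (31 Mgl2DTR and 5 WT UMIs). In other dendritic cells the ratios were nearer to 1. The pDC-like cells (plasmacytoid dendritic cells) had 129.9 CPM in Mgl2DTR and 165.2 CPM in WT, cDC1-like cells 32.9 and 34.6 CPM, and activated DC-like cells 23.65 and 21.55 CPM. Cfp lies on the X chromosome (20925454 to 20931555).

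**Figure D3:**
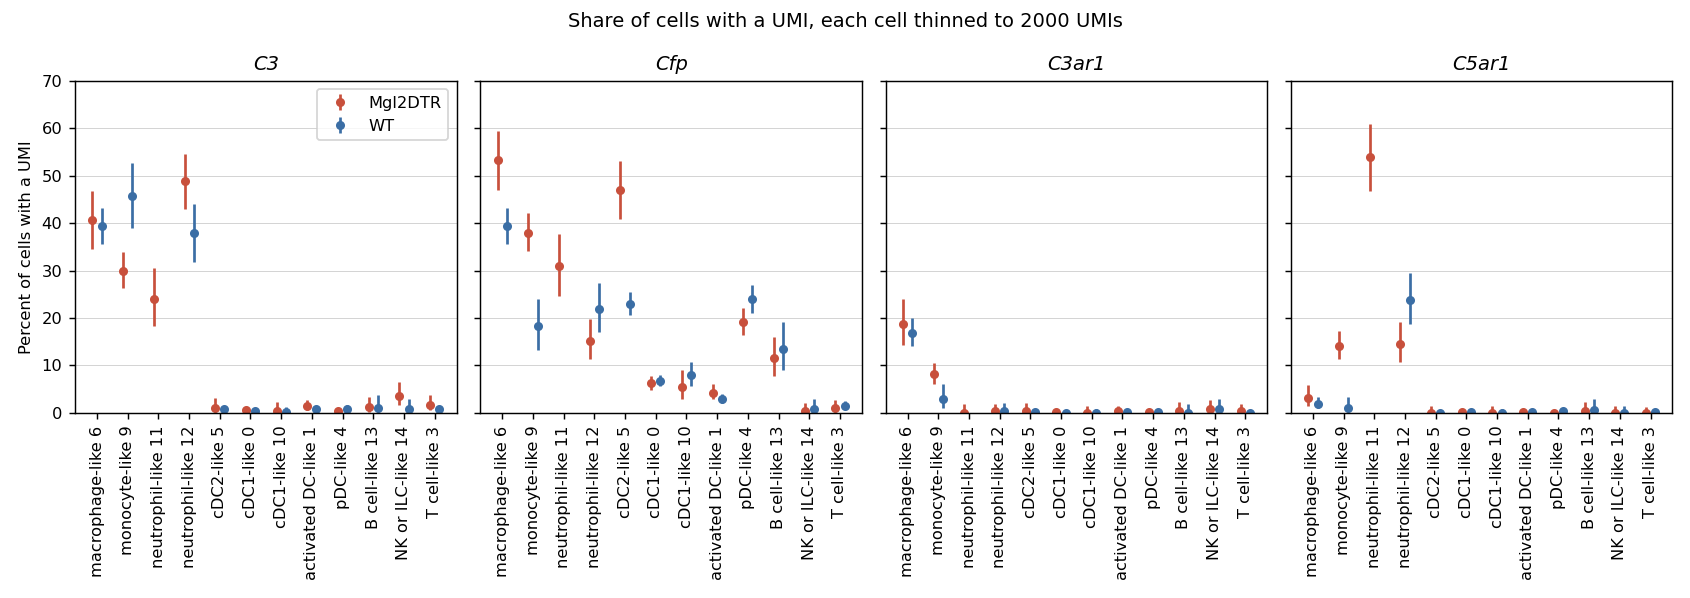
Percent of cells with at least 1 UMI of C3, Cfp, C3ar1 or C5ar1 after thinning every cell to 2000 UMIs, Mgl2DTR in red beside WT in blue, with exact 95% binomial intervals. Cfp was found in 47.0% of Mgl2DTR and 23.0% of WT cDC2-like cells, and WT cells of the Cxcl2-led neutrophil-like cluster are not drawn because fewer than 50 were deep enough.

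The anaphylatoxin receptors had their most UMIs in different clusters. The macrophage-like cluster held more C3ar1 UMIs than any other, at 106.2 CPM in Mgl2DTR and 82.4 CPM in WT (1.29, 1.13 to 1.47), which gave 48.8% of its UMIs in Mgl2DTR and 87.4% in WT. The cluster with the most C5ar1 UMIs was the Cxcl2-led neutrophil-like one in Mgl2DTR (32.0%) and the Camp-led one in WT (48.05%). Per cell, thinned to 2000 UMIs, C5ar1 was found in 53.9% of Mgl2DTR Cxcl2-led cells and C3ar1 in 0 of 204. Only 204 of 637 Mgl2DTR cells of that cluster were deep enough. A limit of 3 counts then allows up to 1.47% of such cells to hold a C3ar1 UMI, which does not limit the share of cells that express the gene. In T cell-like cells C5ar1 was found in 0 of 313 Mgl2DTR cells (up to 0.958% by the same limit) and in 0.0889% of WT cells. C3ar1 lies on chromosome 6 (122847138 to 122856161) and C5ar1 on chromosome 7 (16246743 to 16259540).

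Both receptors were higher in Mgl2DTR monocyte-like cells, by the largest ratios of the 8 genes there. C3ar1 had 275 UMIs in Mgl2DTR and 17 in WT, or 46.4 and 12.5 CPM, a ratio of 3.71 (2.28 to 6.47). C5ar1 had 513 and 11 UMIs, or 86.5 and 8.08 CPM, a ratio of 10.7 (5.93 to 21.6). Thinned to 2000 UMIs, C5ar1 was found in 14.1% (11.4 to 17.2) of Mgl2DTR and 0.935% (0.113 to 3.34) of WT monocyte-like cells, and C3ar1 in 8.09% and 2.80%. Unthinned, the shares were 33.6% and 3.48% for C5ar1 and 22.1% and 5.22% for C3ar1. The C5ar1 ratio lay between 4.12 and 20.1 in all 13 alternatives, and was called in each but the lowest, which left under 50 UMIs. C3ar1 had a ratio of 1.03 at resolution 0.5 and was not called at the larger hashtag margin (2.13). In macrophage-like cells C5ar1 was called higher on 94 UMIs in each genotype, at 30.1 CPM in Mgl2DTR and 11.9 CPM in WT (2.53, 1.88 to 3.40), and in Cxcl2-led neutrophil-like cells at 513 against 315.9 CPM (1.62, 1.25 to 2.14). The macrophage-like ratio was 1.38 with every cell scaled to the same total. It was 1.43 after thinning, on 11 Mgl2DTR and 19 WT UMIs, too few for a call. Without cells holding markers of another lineage it was 0.407, on 7 UMIs. It was called higher at 3.95 (2.65 to 5.95) with the larger hashtag margin. At resolution 0.5, where these cells shared a cluster with monocyte-like cells, it was called higher at 5.80. At the larger hashtag margin 1 WT cell of the Cxcl2-led cluster was left, with 1 C5ar1 UMI, too few to read a ratio.

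The monocyte-like cluster as a whole held 8 measured complement genes, 5 higher and 1 lower, against 6.72% higher and 9.52% lower among its 7933 measured genes. The median log2 ratio of the 8 was 0.73, against -0.05 for all measured genes. Most neutrophil markers moved with these genes: 8 of the 11 measured of 12 listed were called higher. The list summed to 24154 CPM in Mgl2DTR and 3040 CPM in WT monocyte-like cells. S100a8 (12370 and 1892 CPM) and S100a9 (10746 and 889 CPM) made up most of that sum in both genotypes. Of the others, Lcn2 had 649 and 49.96 CPM, and only Csf3r was below WT, at 65.25 and 82.28 CPM. The neutrophil receptor gene Cxcr2, the 1 listed gene at 0 in WT, had 29.2 and 0 CPM. Among cells holding no UMI of 10 neutrophil genes, S100a8 and S100a9 aside, 135 Mgl2DTR and 85 WT cells remained. In them C5ar1 had a ratio of 10.8 (4.09 to 40.4), C3ar1 5.20 (2.11 to 16.6), Cfp 3.79 (2.58 to 5.77) and C3 0.459. In this subset the ratios of these 4 genes were at least as far from 1 as in the whole cluster, and those of the C1q chains were farther (3.39 to 4.28). The Cfb ratio went the other way, from 0.674 in the whole cluster to 0.979 (0.576 to 1.72). C5ar1 rested on 4 and C3ar1 on 5 WT UMIs there. Cells were not left out for S100a8 or S100a9, so the part of neutrophil RNA in these differences was not tested. Macrophage markers summed to 1298 CPM in Mgl2DTR and 1852 CPM in WT monocyte-like cells. Few of these cells had a clear hashtag call: 95 of 616 Mgl2DTR and 14 of 230 WT monocyte-like cells passed the larger hashtag margin, whereas 137 of 270 Mgl2DTR and 633 of 1205 WT cDC2-like cells did. The part of uncertain genotype calls in these results was not tested further.

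**Figure D4:**
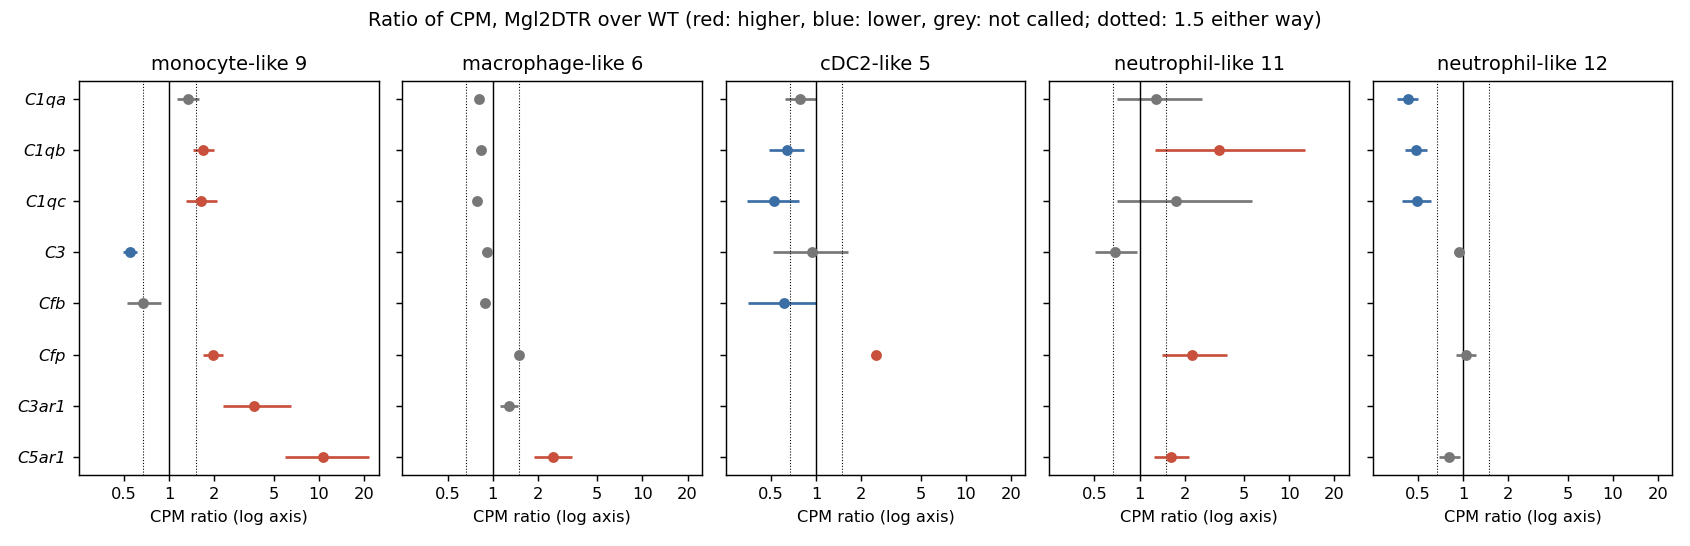
CPM ratio, Mgl2DTR over WT, of each measured complement gene in 5 myeloid clusters on a log axis, with exact 95% intervals, in red where called higher, blue where called lower and grey where not called. Dotted lines mark 1.5-fold either way, and C5ar1 in monocyte-like cells stands farthest right at 10.7.

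Other clusters held fewer calls. Macrophage-like cells had 1 complement gene called higher (C5ar1) and 0 lower of 8, against 5.59% and 2.78% of 9337 measured genes. Neutrophil markers summed to 1402 CPM in Mgl2DTR and 635 CPM in WT macrophage-like cells, and without cells holding neutrophil UMIs the C5ar1 ratio was 1.58 (0.814 to 3.02) on 18 Mgl2DTR and 25 WT UMIs, too few for a call. Cxcl2-led neutrophil-like cells had 3 higher and 0 lower of 6, against 5.45% and 10.1%, and Camp-led cells 0 higher and 3 lower of 6, against 10.4% and 9.23%. B cell-like cells had 1 higher (C1qb) and 1 lower (C3) of 4, against 5.75% and 3.26%. C1qb there had 27.7 CPM in Mgl2DTR and 15.1 CPM in WT, on 59 and 37 UMIs. That is near the 28.8 CPM of Mgl2DTR T cell-like cells. C1qa (1.22) was not called, and C1qc had too few UMIs to be measured. Without cells holding neutrophil UMIs the C1qb ratio was 1.70 (0.941 to 3.17) and not called. Mgl2DTR B cell-like cells were shallower, with a median of 5432 UMIs against 9064 in WT. cDC1-like cells had none of 5 called, against 1.49% higher and 1.61% lower, and activated DC-like cells none of 6, against 3.14% and 5.66%. Ratios of the measured complement genes in the remaining described clusters were between 0.787 and 1.43.

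Of 45 other complement genes listed, 37 were in the tables. In monocyte-like cells 10 were measured, 4 higher and 0 lower, against 6.72% and 9.52% of all measured genes there: the second C5a receptor C5ar2 (8.09 CPM in Mgl2DTR and 2.94 CPM in WT), the receptor chain Itgam (302 and 171 CPM), and Calr and C1qbp, known to bind C1q. In macrophage-like cells 3 of 14 were higher (C5ar2, Itgam and Cd93) and 2 lower, against 5.59% and 2.78%. The lower ones were C4b at 2.56 CPM in Mgl2DTR and 15.3 CPM in WT, and C2 at 8.64 and 13.4 CPM, both used to build the classical C3 convertase. In cDC2-like cells Itgam was higher among 7 measured, against 3.02%, at 52.3 CPM in Mgl2DTR and 14.2 CPM in WT. B cell-like cells, where 5.75% of all measured genes were higher, had 2 of 8 higher: Cr2, the B cell receptor for C3 fragments (53.5 and 17.1 CPM), and Cd55, which speeds the decay of convertases (83.0 and 39.2 CPM). Itgam encodes CD11b, an antigen of the sort. Camp-led neutrophil-like cells had 2 of 12 higher (Calr and C1qbp) and 3 lower (Cd55, Itgax and Cd93), against 10.4% and 9.23%. Single genes, not named here, were called elsewhere. Activated DC-like cells had 1 of 7 higher, against 3.14%, and pDC-like cells 1 of 6 higher, against 1.42%. T cell-like cells had 1 of 5 lower, against 2.48%. NK or ILC-like cells had 1 higher and 1 lower of 10, against 3.87% and 2.81%. The remaining described clusters had none.

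Over all cells of a genotype, which mixes level and cluster size, the C1q genes had 556.99 CPM in Mgl2DTR and 917.8 CPM in WT, while C5ar1 had 25.9 and 4.39 CPM. Fewer cells of a type and less RNA per cell cannot be told apart in such sums. Genes whose levels ran most like C1q over 23 WT clusters (Pearson's r of log2 of CPM plus 10, over 6075 genes, a description only) were Ms4a7 (0.93), Itgb5, Nr1h3 and Camk1. Those most like C3ar1 were Ms4a7 (0.96), Spic, Ccl8, Nr1h3 and Hebp1, and those most like Cfb were Axl (0.93), Nr1h3, C1qb, Ms4a7 and Spic. Lists led by genes that are highest in macrophage-like cells thus stood beside C1q, C3ar1 and Cfb. Those most like C5ar1 were Fpr1, a receptor for bacterial peptides (0.98), Ifit1bl2, Gm13822, Slfn4 and Mmp9, all highest in Cxcl2-led neutrophil-like cells. Those most like C3 were Xdh (0.89), Fcgr3, Abcd2, Gstm1 and Fgd4, and those most like Cfp were Trf (0.89), Cd68, Lmo2, I830077J02Rik and Lyn.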

How the data were processed

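Thymic cells of both genotypes were sequenced as 1 hashtagged pool. The submitters' processing notes name Cell Ranger 6.0.0, Seurat 4.0.4 and the mouse build mm10, and the gene annotation was not given in the sources used here. Gene values, as deposited by the authors, are raw UMI counts for each gene in each cell. A table deposited beside them gives the hashtag call, from which genotype was taken, and a score for the margin of the strongest hashtag over the next. The gene tables shared 0 barcodes.

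Counts were summed per genotype and cluster and given per 1e6 UMIs of that sum (CPM). Leiden clustering (leidenalg 0.10.2, igraph 0.11.9, resolution 1, seed 1) used 2000 variable genes, 30 principal components and 20 neighbours, with Python 3.11.15, scikit-learn 1.9.0, numpy 2.4.6, pandas 2.3.3 and scipy 1.17.1. Figures used matplotlib 3.10.9. Doublets were called where at least 25 of the 50 nearest cells carried a pair of hashtags, and called doublets were kept in the main values. Names were built from at least 3 markers and end in "-like", so they may differ from the study's own. Ratios against fewer than 3 counts were not read as folds. Named genes were the 8 members in every described cluster and the 5 genes most alike across WT clusters. Other listed complement genes were named where called in the monocyte-like, macrophage-like, cDC2-like, B cell-like and Camp-led neutrophil-like clusters. Some items are not reported here, and counts of other complement genes leave them out. Thinning drew 2000 UMIs per cell and left out shallower cells.

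The members and gene lists were chosen with earlier results of these data known. Resolution 2 and the exclusion of cells with neutrophil UMIs were chosen after seeing the data. The call rule was tested on simulated counts that varied by counting error only. That test leaves out doublets, background RNA and the spread between cells, so it does not show how the rule fares with these. The exact intervals cover counting error only.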

Additional observations from a re-analysis of the deposited data

How the results depend on the processing

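The differences rest on 1 hashtag-assigned set of cells per genotype, so animal, digestion and toxin effects cannot be told apart, and 34.0% of barcodes with a pair of hashtags leave doublets within a genotype unseen. Depth limits the calls on few UMIs. No paired analysis was possible because each genotype is 1 sample. In all compared clusters 20 pairs of complement gene and cluster were higher and 14 lower. The count of higher pairs was 12 after thinning to 2000 UMIs, 12 without called doublets and 9 without cells holding markers of another lineage, a filter that drops 70.03% of Mgl2DTR and 71.9% of WT cells. The count of lower pairs was 8 with at least 200 UMIs, 4 after thinning, 2 without other-lineage markers and 7 at the larger hashtag margin. The cause of these changes was not tested.

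The summed C1q level of WT macrophage-like cells, 12349 CPM, was 12055 after thinning, 13739 without called doublets, 15813 without other-lineage markers, 12982 with the complement genes among the clustered genes and 11760 (11759.94) with every cell scaled to the same total. With the complement genes clustered, Cfp in Mgl2DTR cDC2-like cells was 301 CPM against 381 and C3 in WT monocyte-like cells 311 CPM against 361, and that C3 level was 328 CPM with every cell scaled alike. Thinned to 1000 UMIs, Cfp was found in 29.6% of Mgl2DTR cDC2-like cells and C1qa in 82.3% of WT macrophage-like cells.

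Directions of single ratios turned as follows, some on too few UMIs to read as a fold. In cDC2-like cells C1qb was 1.42 without other-lineage markers, 1.55 at resolution 0.5, 2.14 at resolution 2 and 1.27 with complement genes clustered, C1qc was 1.57, 1.47 and 1.25 in the last 3, and Cfb was 4.42 without other-lineage markers (4 UMIs in each genotype) and 1.07 with complement genes clustered. In monocyte-like cells C1qb was 0.425 and C1qc 0.392 at resolution 0.5, and 0.517 and 0.508 at resolution 2. C5ar1 in macrophage-like cells was 0.407 (1 and 6 UMIs) and Cfp in Cxcl2-led neutrophil-like cells 0.958 (31 and 5 UMIs) without other-lineage markers, C5ar1 in those neutrophil-like cells 0.441 at the larger margin (55 and 1 UMIs), and C3 in B cell-like cells 1.14 after thinning (3 and 2 UMIs). Of the other alternatives for single genes, 172 kept their direction and side and 49 moved.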
